A study of Homo sapiens with 18 samples.

Results

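The genes described here are the very long ones, whose outermost exons lie more than 300 kb apart, in a study of daphnetin in ovarian cancer cells. A row of the count table was taken when its largest end minus its smallest start exceeded 300000 bases and its mean over all 18 libraries was 1 CPM or more, a CPM being the count scaled to a fixed library total. That gave 560 rows of 56303. In 28 of them 1 symbol pooled gene copies lying far apart or on several chromosomes or strands, so the span was not that of a gene, and they were set aside. The remaining 532 single-locus genes are described, out of 17321 single-locus genes at 1 CPM or more. The members were chosen by span and by mean level over all libraries, so neither is a finding. Another 445 single-locus genes over 300 kb lay under 1 CPM on average.

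The study used A2780 and SKOV3, a pair of human ovarian cancer cell lines that the labels call wild type, although their tissue field reads as ovarian tissue. Each line was treated with daphnetin, a plant dihydroxycoumarin, at 20 mg/L or 40 mg/L, or with the DMSO solvent alone, with 3 libraries in each of the 6 groups. The duration of treatment is not given in the sources used here. The labels list a pair of culture media for the pair of lines, so line and medium cannot be told apart, and nothing says that the 3 libraries of a group came from separate cultures, so p-values measure the spread between libraries. ERBB2, amplified in SKOV3, averaged 2727 ± 70.8 CPM in SKOV3 DMSO libraries against 65.7 ± 0.785 CPM in A2780 DMSO libraries (SD, n = 3 each).

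RNA polymerase II must travel the whole of a gene, introns included, before a complete messenger RNA is released, so the transcription of a very long gene takes hours and nearly all of it is intron. Very long genes are enriched for adhesion molecules, synaptic scaffolds and signalling proteins, and several of them overlie common fragile sites, regions that break when replication is slowed. In bulk RNA, fewer cells expressing a gene and less RNA of it per cell cannot be told apart.

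Promoters of 4 of these genes are shown as examples. GPC6, ANK3 and SMYD3 were lower with daphnetin in both lines, and PALLD was higher in both, at 40 mg/L in each case. Each is the RefSeq window on GRCh38.p14 from 250 bases before the start to 50 after it, 5′ to 3′ on the gene's own strand. Capitals mark matches to the motifs searched on both strands, which were the GC box GGGCGG, the TATA box TATAAA, the CCAAT box CCAAT, the E-box CACGTG and the antioxidant response element core TGACNNNGC. The 2 matches in SMYD3 overlap by 1 base and read as 1 run.
GPC6 (chr13:93226557-93226856, plus strand): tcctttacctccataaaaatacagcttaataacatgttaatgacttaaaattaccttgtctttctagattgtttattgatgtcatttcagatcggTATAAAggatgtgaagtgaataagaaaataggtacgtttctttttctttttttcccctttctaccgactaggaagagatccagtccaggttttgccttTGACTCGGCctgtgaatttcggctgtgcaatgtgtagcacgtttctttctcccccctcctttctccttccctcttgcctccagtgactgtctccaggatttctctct
ANK3 (chr10:60733479-60733778, minus strand): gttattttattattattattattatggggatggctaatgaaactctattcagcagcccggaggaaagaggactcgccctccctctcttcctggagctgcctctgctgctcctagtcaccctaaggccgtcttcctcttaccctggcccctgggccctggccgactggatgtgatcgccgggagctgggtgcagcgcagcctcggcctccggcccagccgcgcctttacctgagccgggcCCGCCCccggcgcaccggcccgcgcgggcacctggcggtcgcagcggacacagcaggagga
SMYD3 (chr1:246507230-246507529, minus strand): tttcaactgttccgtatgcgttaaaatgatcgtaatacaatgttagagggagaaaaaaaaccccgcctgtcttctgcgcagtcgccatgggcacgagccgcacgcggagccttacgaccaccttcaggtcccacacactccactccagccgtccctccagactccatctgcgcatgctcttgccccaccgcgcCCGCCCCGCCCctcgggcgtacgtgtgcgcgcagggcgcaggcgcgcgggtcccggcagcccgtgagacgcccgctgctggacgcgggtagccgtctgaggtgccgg
PALLD (chr4:168496802-168497101, plus strand): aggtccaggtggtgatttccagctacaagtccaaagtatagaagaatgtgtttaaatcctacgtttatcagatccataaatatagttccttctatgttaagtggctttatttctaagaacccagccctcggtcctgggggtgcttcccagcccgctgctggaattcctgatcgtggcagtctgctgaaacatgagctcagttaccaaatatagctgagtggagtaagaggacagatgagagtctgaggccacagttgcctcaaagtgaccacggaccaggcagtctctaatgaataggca

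GPC6 held a TATA box 155 bases before its start and an antioxidant response element core 57 bases before it, in a window of 40.0% GC. ANK3 held a GC box 11 bases before its start, read on the opposite strand, and SMYD3 held 2, 57 and 52 bases before its start, in windows of 64.0% and 65.0% GC. PALLD held none of the motifs, in a window of 46.7% GC. RefSeq promoters matched 422 of the 532 genes by symbol, and in 306 the RefSeq start lay within 1000 bases of the outermost start in the count table. Of those 306, 70.59% held a GC box, against 44.95% of all 35116 promoters, and 4.248% held a TATA box, against 11.53%. The antioxidant response element core stood in 12.42% of the long genes and in 13.35% of all promoters. Their median GC content was 66.83%, against 58.67% over all promoters. The 35116 promoters were not limited by level, span or biotype, so whether these differences go with span was not tested. A GC box stood in 71.26% of the 174 matched genes that were lower in A2780 at 20 mg/L. It stood in 70.69% of the 58 that were not called there and in 83.33% of the 6 that rose. The antioxidant response element core stood in 14.94%, 6.897% and 33.33% of these sets. In SKOV3 at 40 mg/L it stood in 14.5% of 200 lower, 12.7% of 63 not called and 3.571% of 28 higher. A GC box stood in 69%, 76.19% and 67.86% of the SKOV3 sets in the same order. These shares were not tested. A match is a description of letters and not of binding.

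The long genes spanned 300.1 to 2298 kb with a median of 420.9 kb. Of the 532 genes, 179 exceeded 500 kb and 31 exceeded 1 Mb. Their exonic length had a median of 9418 bases, so that a median of 2.022% of the span was exon, in a median of 26 separate exon blocks. Protein-coding genes made up 485 of them (91.17%). Their mean level had a median of 10.67 CPM, close to the 10.17 CPM of the 9373 single-locus genes under 30 kb at 1 CPM or more, whose median exonic length was 2836 bases. Just inside the span threshold were RP11-302M6.4 at 300.1 kb, SYT16 at 300.6 kb and COBL at 300.6 kb, and just outside it AC007563.5 at 299.6 kb, PCBP3 at 298.8 kb and MIR4435-2HG at 298.8 kb. At the level threshold MSRA averaged 1.001 CPM, SLIT3 1.033 CPM and TENM4 1.04 CPM, and just under it TSHZ2 averaged 0.983 CPM, COL25A1 0.973 CPM and DOK6 0.971 CPM. In 33 of the long genes more than 10% of the exonic bases overlapped a gene on the opposite strand. The strand setting of the counting is not given, so reads of such pairs cannot be told apart, and the overlap is stated where a named gene has one above 5%.

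Libraries held 30016475 to 37220879 counts in A2780 and 35105152 to 44132931 in SKOV3. Of the 532 genes, 406 averaged 1 CPM or more in A2780 and 497 in SKOV3, with 371 at that level in both lines, 35 in A2780 alone and 126 in SKOV3 alone. The test kept 445 of the 532 in A2780 and 528 in SKOV3. Levels are CPM after TMM scaling within a line, differences are log2 fold changes of daphnetin over DMSO, and "rose" or "fell" is written of genes whose p in edgeR's quasi-likelihood F test, adjusted over all genes tested, was under 0.05. A value after ± is the standard error of a log2 fold change, or the SD over 3 libraries of a level.

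In A2780 at 20 mg/L the long genes were mostly lower. Of the 445 tested, 292 fell and 10 rose, while 18.9% of all 20593 genes tested were called lower and 18.1% higher. Their median log2 fold change was -0.50, against 0.01 over all genes tested. Among the 406 at 1 CPM or more, 286 fell (70.44%), 71 of them at least 2-fold, and 10 rose (2.463%). Of all 16269 single-locus genes at that level, 3711 fell (22.81%), 194 of them at least 2-fold, and 3455 rose (21.24%). The marker genes of the set were among those that fell: DLG2, a scaffold of cell junctions and synapses, and GPC6, a heparan sulfate proteoglycan of the cell surface. DLG2 (chr11:83455012-85627922, minus strand) had 14.2, 20.3 and 17.2 CPM in DMSO libraries, 5.56, 4.74 and 4.57 at 20 mg/L and 5.79, 5.55 and 5.99 at 40 mg/L. Every treated library lay below every DMSO library, with a log2 fold change at 20 mg/L of -1.80 ± 0.13 (adjusted p = 3.52e-12). ANK3, an ankyrin that ties membrane proteins to the spectrin skeleton (chr10:60026298-60733490, minus strand), had 23.3, 20.7 and 21.2 CPM at 20 mg/L, against 55.6, 65.8 and 64.1 CPM with DMSO, a log2 fold change of -1.51 ± 0.08 (adjusted p = 5.86e-15). Its groups did not overlap either. Genes named for their fold change within a line were taken only where libraries did not overlap. For them, here and below, this was fixed by the rule. Of all 20593 genes tested, 4754 had every 20 mg/L library below every DMSO library and 4716 had every one above. The genes of largest fall that met the naming rule were DLG2, ANK3, DIAPH2 and CAMK1D, and those of largest rise were SLC27A6, PALLD, PCLO and BACH1.

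At 40 mg/L in A2780 fewer long genes were called lower than at 20 mg/L. Of the 445 tested, 199 fell and 26 rose, against 19.2% and 17.7% of all genes tested, with a median log2 fold change of -0.27 against -0.01 over all genes. Scaled by library totals alone, 158 fell and 52 rose. The direct comparison of the doses called 179 of the 445 higher at 40 mg/L than at 20 mg/L and 14 lower, against 6.71% and 7.85% of all genes tested, with a median log2 difference of 0.25. The count of 14 was 8 without 20 mg/L replicate 3 and 7 without 40 mg/L replicate 2. DIAPH2, a formin that builds actin filaments (chrX:96684663-97604997, plus strand), followed this order. It had 21.4, 21.04 and 23.00 CPM in DMSO libraries, 9.62, 6.48 and 7.04 at 20 mg/L and 15.5, 14.1 and 14.5 at 40 mg/L. The 40 mg/L libraries lay between the other groups without overlap, with a log2 difference of 0.92 ± 0.11 (adjusted p = 3.1e-06) between 40 and 20 mg/L. CDK14, a cyclin-dependent kinase bound to the membrane, averaged 7.22 ± 0.693 CPM with DMSO, 3.76 ± 0.561 at 20 mg/L and 7.404 ± 0.477 at 40 mg/L. At 20 mg/L it fell, with a log2 fold change of -0.94 ± 0.14 (adjusted p = 3.02e-06), and at 40 mg/L its log2 fold change against DMSO was 0.04 ± 0.13 (adjusted p = 0.861). GPC6 (chr13:93226842-94407401, plus strand) was lower at 40 mg/L than at 20 mg/L. It had 10.6, 8.32 and 10.03 CPM in DMSO libraries, 4.17, 4.36 and 5.63 at 20 mg/L and 2.798, 2.09 and 2.55 at 40 mg/L, a log2 fold change of -1.03 at 20 mg/L and of -1.96 ± 0.15 (adjusted p = 3.65e-11) at 40 mg/L. The log2 difference between 40 and 20 mg/L was -0.93 ± 0.16 (adjusted p = 0.000217). RP11-632L2.2 on the opposite strand overlaps 7.36% of the exonic bases. The mitochondrial share of counts ran between 10.6% and 16.51% over the A2780 libraries and was least in 20 mg/L replicate 2 and 40 mg/L replicate 1. Without both of those libraries, 287 long genes fell and 11 rose at 20 mg/L, and 197 fell and 25 rose at 40 mg/L.

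SKOV3 at 20 mg/L showed fewer changes among the long genes than A2780, though a larger share fell than of all genes tested. Of the 528 tested, 53 fell (10.04%) and 29 rose (5.492%), against 4.95% and 5.16% of all 21936 genes tested, and the median log2 fold change was -0.01 against 0.00 over all genes. Those counts were 30 and 18 without DMSO replicate 3, the fall count was 34 without 20 mg/L replicate 2 and the rise count 16 without 20 mg/L replicate 3. Scaled by library totals alone, 40 fell and 39 rose. The largest fall by the naming rule was in NAV2, a cytoskeletal protein of growing neurites (chr11:19350724-20121598, plus strand), with 10.4, 10.8 and 10.5 CPM at 20 mg/L, against 21.4, 21.5 and 19.1 CPM with DMSO, a log2 fold change of -0.97 ± 0.09 (adjusted p = 3.95e-10). NAV2-AS1 on the opposite strand overlaps 8.08% of its exonic bases. COL24A1, a fibrillar collagen, had the largest rise, averaging 5.06 ± 0.684 CPM at 20 mg/L against 2.73 ± 0.367 CPM with DMSO, a log2 fold change of 0.88 ± 0.14 (adjusted p = 4.16e-05).

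At 40 mg/L in SKOV3 the long genes were mostly lower. Of the 528 tested, 358 fell and 47 rose, against 25.6% and 26.4% of all genes tested, and their median log2 fold change was -0.50 against 0.01 over all genes. Among the 497 at 1 CPM or more, 341 fell (68.61%), 97 of them at least 2-fold, and 47 rose (9.457%). Of all 16860 single-locus genes at that level, 4910 fell (29.12%), 843 of them at least 2-fold, and 5244 rose (31.1%). Between the doses, 359 of the 528 were lower at 40 mg/L than at 20 mg/L and 32 were higher, against 24.2% and 23.2% of all genes tested. DLG2 was near the detection limit in this line, with means of 0.211 ± 0.0765 CPM at 40 mg/L and 0.594 ± 0.0619 CPM with DMSO, and fell with a log2 fold change of -1.49 ± 0.41 (adjusted p = 0.00276). GPC6 had 4.63, 4.41 and 4.11 CPM at 40 mg/L, against 11.9, 11.6 and 11.9 CPM with DMSO, a log2 fold change of -1.43 ± 0.11 (adjusted p = 3.05e-13), with no overlap between the groups. Of all 21936 genes tested, 6221 had every 40 mg/L library below every DMSO library and 6422 had every one above. C2orf88, which encodes a small membrane-bound anchor of protein kinase A (chr2:189879609-190203484, plus strand), had 4.52, 3.67 and 4.78 CPM at 40 mg/L, against 23.7, 27.02 and 27.8 CPM with DMSO. Its log2 fold change of -2.60 ± 0.10 (adjusted p = 1.98e-21) was the largest fall by the naming rule.

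The same pattern appears in the share of all counts that the 532 genes took. In A2780 they took 1.41 ± 0.0212% of the counts with DMSO, 1.033 ± 0.0411% at 20 mg/L and 1.241 ± 0.047% at 40 mg/L (SD, n = 3 each). The 3 libraries at 20 mg/L held 1.034%, 1.073% and 0.9912%, all below the 3 at 40 mg/L with 1.295%, 1.218% and 1.21%, which were all below the DMSO libraries with 1.387%, 1.429% and 1.413%. In SKOV3 the share was 1.695 ± 0.0414% with DMSO, 1.684 ± 0.026% at 20 mg/L and 1.33 ± 0.0316% at 40 mg/L. The 20 mg/L and DMSO libraries of SKOV3 overlapped, and the 40 mg/L libraries, at 1.352%, 1.343% and 1.294%, lay below both. With mitochondrial genes left out of the total, the mean shares in A2780 were 1.645%, 1.202% and 1.43% in the same order of dose, and in SKOV3 1.781%, 1.771% and 1.398%.

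**Figure D1:**
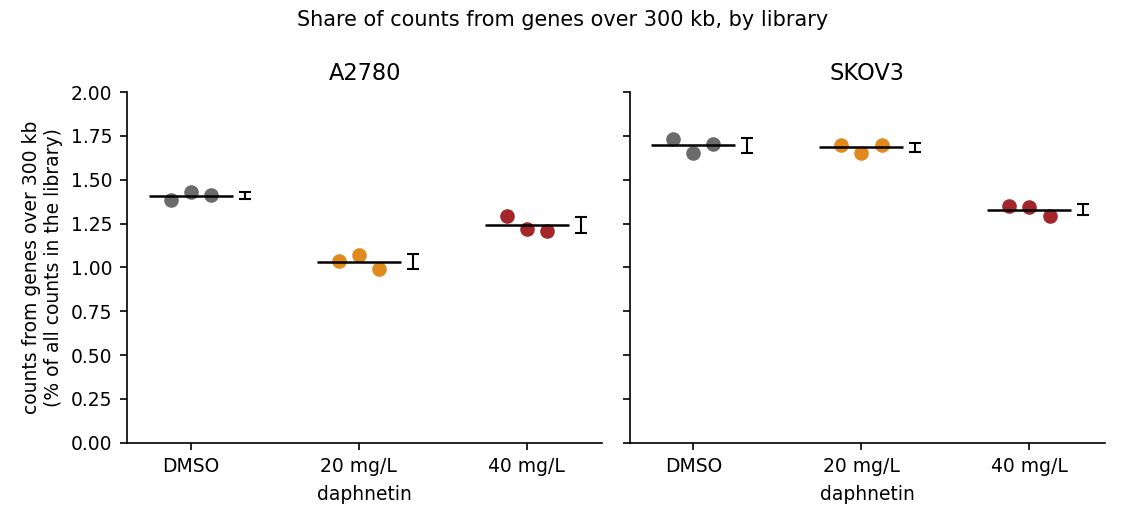
Share of all counts taken by the 532 genes over 300 kb, in percent, in each library (points) by line and daphnetin dose, with the mean (line) and SD (bar) of 3 libraries. The A2780 groups average 1.41% with DMSO, 1.033% at 20 mg/L and 1.241% at 40 mg/L without overlap, and in SKOV3 only the 40 mg/L libraries, averaging 1.33%, lie below the others.

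The fall was larger in the span classes above 300 kb than in those below it. In A2780 at 20 mg/L the median log2 fold change was 0.01 for 8976 genes under 30 kb, 0.04 for 4754 genes of 30 to 100 kb and -0.10 for 2121 genes of 100 to 300 kb. It was -0.49 for 288 genes of 300 to 500 kb, -0.76 for 106 genes of 500 kb to 1 Mb and -0.70 for 24 genes over 1 Mb. The share called lower was 19.56% in the shortest class, 33.8% at 100 to 300 kb and 69.44%, 70.75% and 66.67% in the 3 classes over 300 kb. In SKOV3 at 40 mg/L the medians in the 6 classes from short to long were 0.04, 0.05, -0.05, -0.40, -0.73 and -0.44, and the last rested on 26 genes. A2780 at 40 mg/L gave -0.03, 0.03, 0.01, -0.23, -0.50 and -0.68, and SKOV3 at 20 mg/L gave no class beyond 0.03 on either side of 0. Among the long genes alone, Spearman's rank correlation between span and log2 fold change was -0.20 in A2780 at 20 mg/L, -0.24 at 40 mg/L, -0.11 in SKOV3 at 20 mg/L and -0.31 at 40 mg/L. The same correlation for exonic length was 0.00, 0.04, -0.05 and -0.05. It was 0.13, 0.21, 0.01 and 0.13 for the exonic percentage of the span, -0.08, -0.18, -0.04 and -0.13 for the largest gap between exons, -0.06, -0.09, -0.05 and -0.13 for the number of exon blocks, and -0.04, 0.07, -0.07 and 0.17 for mean CPM. The exonic percentage and the largest gap are tied to span, and the correlations were not tested against each other. These correlations run over 406 genes in A2780 and 497 in SKOV3 that share their libraries, and genes are not replicates.

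**Figure D2:**
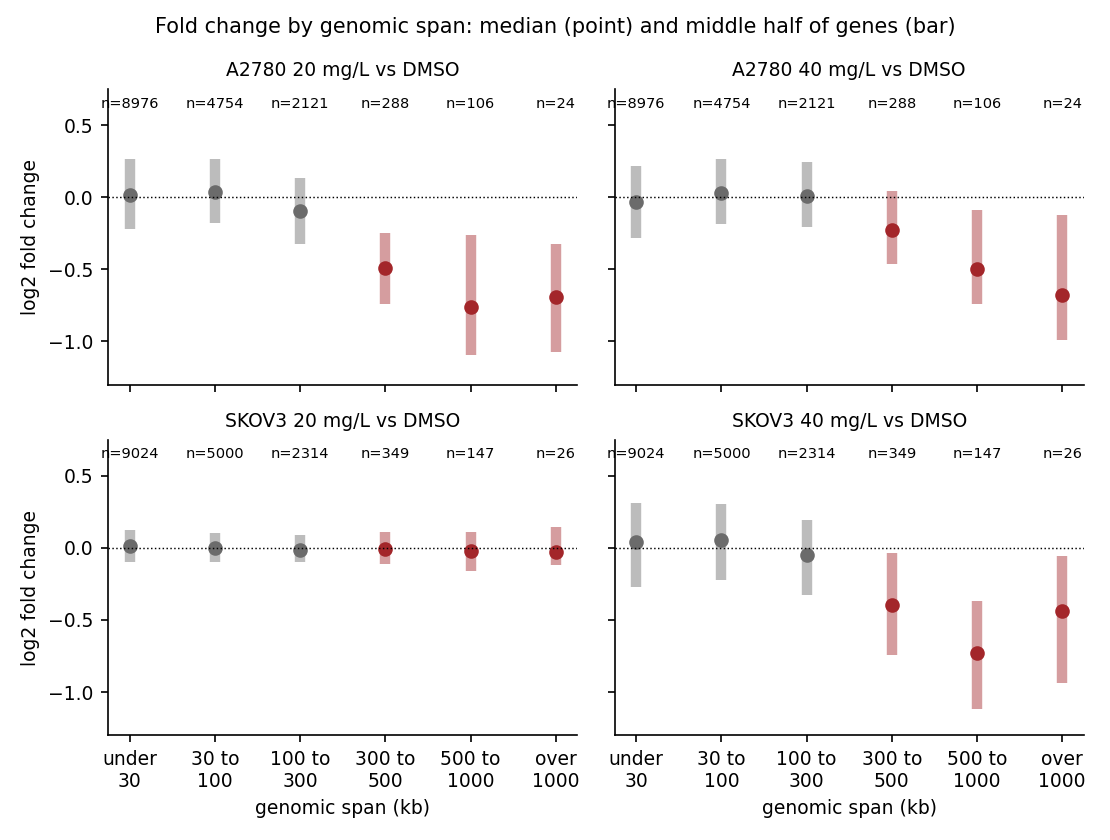
Log2 fold change of daphnetin over DMSO by genomic span class, for each line and dose, over genes at 1 CPM or more. The medians stay near 0 up to 300 kb and reach -0.76 in A2780 at 20 mg/L and -0.73 in SKOV3 at 40 mg/L for genes of 500 kb to 1 Mb.

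Genes under 30 kb of like exonic length and level did not show the same balance. They were weighted over a grid of 4 classes of exonic length by 4 of mean CPM to the long genes' distribution, and the sparsest cell held 3 short genes. Lengths can still differ within a class, since exonic length reached 119000 bases in long genes and 23110 in short ones. Mean CPM was taken over all 18 libraries of both lines. Biotype and opposite-strand overlap were not matched. Before weighting, 91.17% of the 532 long genes and 63.75% of the 9373 short ones were protein coding, with 4.699% and 23.77% unmatched by symbol. More than 10% of exonic bases overlapped an opposite-strand gene in 6.203% and 27.24%. What these differences add was not tested. In A2780 at 20 mg/L, 70.44% of the long genes fell and 2.463% rose, against 13.05% and 31.28% of the like short genes, with median log2 fold changes of -0.51 and 0.12. In A2780 at 40 mg/L, 48.28% of the long genes fell, against 14.82% of the short ones. In SKOV3 at 20 mg/L the shares that fell were 10.66% and 2.937%. In SKOV3 at 40 mg/L 68.61% of the long genes fell and 9.457% rose, against 21.15% and 36.75% of the short ones, with medians of -0.47 and 0.10. Without weights, between the quartiles of both exonic length and level, 74.29% of 105 long genes fell in A2780 at 20 mg/L, against 13.71% of 350 short genes. In SKOV3 at 40 mg/L, 65.08% of 126 long genes fell, against 14.19% of 303 short genes. This unweighted comparison was chosen after the weighted one had been seen.

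**Figure D3:**
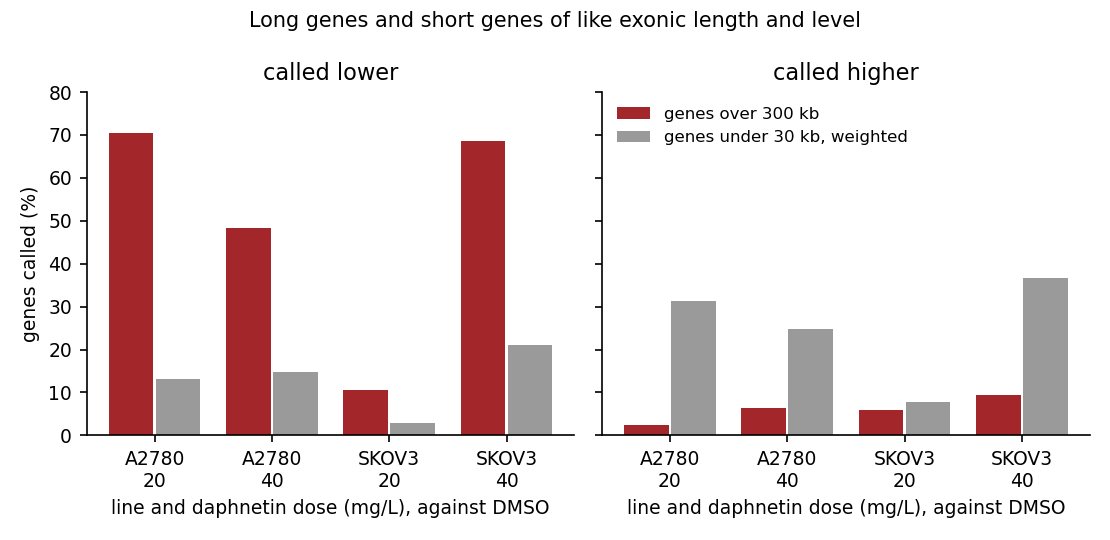
Genes over 300 kb and genes under 30 kb weighted over classes of exonic length and level to the long genes' distribution, by line and dose, as the percentage called lower and called higher. Long genes fell in 70.44% and short genes in 13.05% of cases in A2780 at 20 mg/L, and in 68.61% and 21.15% in SKOV3 at 40 mg/L.

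How many long genes fell in both lines depended on the SKOV3 dose. Of the 371 at 1 CPM or more in both lines, 261 (70.35%) fell in A2780 at 20 mg/L and 177 (47.71%) at 40 mg/L, and 36 (9.704%) fell in SKOV3 at 20 mg/L and 244 (65.77%) at 40 mg/L. At 20 mg/L in both lines, 25 fell in both, which is 9.579% of the A2780 genes and 69.44% of the SKOV3 genes. Another 9 fell in A2780 and rose in SKOV3, and none rose in both. The shares of genes that fell also in the other line are close to the 9.704% and 70.35% that fell there among all 371. At 40 mg/L in both lines, 142 fell in both, 80.23% of the A2780 genes, against 65.77% of all 371 in SKOV3, and 58.2% of the SKOV3 genes, against 47.71% of all 371 in A2780. A further 8 fell in A2780 and rose in SKOV3, 12 did the opposite, and BACH1, DAB1, FOXN3, PALLD, RP5-972B16.2 and SGMS1 rose in both. Across unlike doses, A2780 at 20 mg/L and SKOV3 at 40 mg/L, 198 fell in both, 75.86% of the A2780 genes and 81.15% of the SKOV3 genes, against 65.77% and 70.35% of all 371. There 16 fell in A2780 and rose in SKOV3, 2 did the opposite, and BACH1, DAB1 and PALLD rose in both. A2780 at 40 mg/L and SKOV3 at 20 mg/L shared 21 that fell. These were 11.86% of the A2780 genes and 58.33% of the SKOV3 genes, against 9.704% and 47.71% of all 371. Sharing was not particular to long genes. Over all 14763 genes at that level in both lines, the matching shares at 20 mg/L in both were 11.64% and 45.76%, against 5.995% and 23.56% of all. At 40 mg/L in both they were 44.18% and 37.58%, against 26.97% and 22.94%. For A2780 at 20 mg/L and SKOV3 at 40 mg/L they were 47.18% and 41.22%, against 26.97% and 23.56%. For A2780 at 40 mg/L and SKOV3 at 20 mg/L they were 11.05% and 42.26%, against 5.995% and 22.94%. None of these overlaps was tested.

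**Figure D4:**
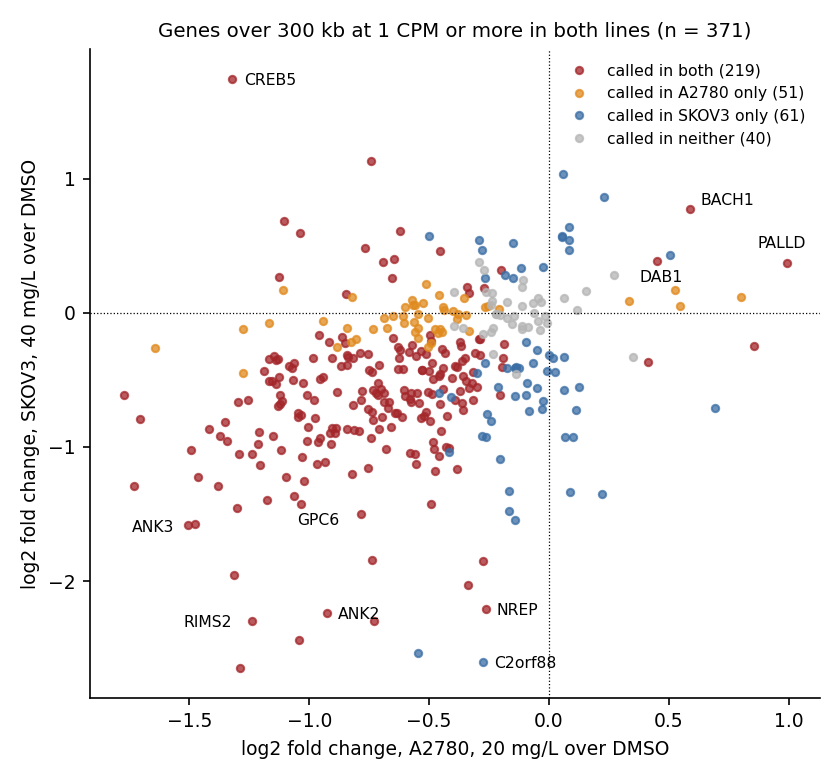
Log2 fold change in SKOV3 at 40 mg/L (vertical) against that in A2780 at 20 mg/L (horizontal) for the 371 genes over 300 kb at 1 CPM or more in both lines, coloured by the lines in which a gene was called. Most points lie in the lower left, where 198 genes fell in both lines, and CREB5 stands apart at -1.32 in A2780 and 1.74 in SKOV3.

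The 5 genes of largest span all fell in at least 1 line. PTPRD, a receptor tyrosine phosphatase of cell adhesion (chr9:8314246-10612723, minus strand), spans 2298 kb and had 9.02, 15.2 and 12.9 CPM in DMSO libraries, 5.18, 5.01 and 5.897 at 20 mg/L and 6.68, 5.63 and 6.85 at 40 mg/L in A2780. Its treated A2780 libraries lay below its DMSO libraries, with log2 fold changes of -1.21 ± 0.15 (adjusted p = 3.2e-07) at 20 mg/L and -0.96 ± 0.15 (adjusted p = 8.05e-06) at 40 mg/L. In SKOV3 its log2 fold change was 0.09 at 20 mg/L, which was not called, and -0.89 ± 0.10 (adjusted p = 3.53e-09) at 40 mg/L. DMD, which encodes dystrophin, the link between actin and the membrane complex of muscle (chrX:31097677-33339441, minus strand), had 37.2, 40.8 and 42.96 CPM in DMSO libraries, 16.4, 16.03 and 15.2 at 20 mg/L and 15.04, 12.7 and 14.7 at 40 mg/L in A2780. Its log2 fold changes were -1.34 ± 0.09 (adjusted p = 4.25e-13) and -1.51 ± 0.09 (adjusted p = 4.13e-14) at the 2 doses, and -0.95 ± 0.13 (adjusted p = 3.03e-07) in SKOV3 at 40 mg/L. PCDH15, a protocadherin of hair-cell tip links, averaged 68.9 ± 2.21 CPM with DMSO, 40.01 ± 10.5 at 20 mg/L and 36.8 ± 2.98 at 40 mg/L in A2780 and fell at both doses, with log2 fold changes of -0.78 ± 0.16 (adjusted p = 0.00395) and -0.91 ± 0.16 (adjusted p = 0.00172). MACROD2, an enzyme that removes ADP-ribose from proteins, lay under 1 CPM in A2780 and averaged 44.9 ± 2.04 CPM with DMSO, 39.9 ± 1.63 at 20 mg/L and 21.8 ± 2.49 at 40 mg/L in SKOV3, where it fell at 40 mg/L with a log2 fold change of -1.04 ± 0.07 (adjusted p = 1.13e-14).

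All 5 long genes of highest mean CPM fell in A2780 at 20 mg/L. Per kb of exon, MACF1 had 12.5 CPM in A2780 DMSO libraries, DST 14.4, CTNNA1 20.6, EIF4G3 36.6 and JMJD1C 34.6, and in SKOV3 DMSO libraries CTNNA1 was highest at 73.2. MACF1, a spectraplakin that joins actin to microtubules (chr1:39081316-39487177, plus strand), averaged 539.9 ± 9.596 CPM with DMSO, 382 ± 10.5 at 20 mg/L and 440.4 ± 8.66 at 40 mg/L in A2780 and 1281 ± 55.8 CPM with DMSO, 1065 ± 44.8 at 20 mg/L and 734 ± 36.5 at 40 mg/L in SKOV3. It fell in all 4 comparisons with DMSO, most in SKOV3 at 40 mg/L, where the log2 fold change was -0.80 ± 0.05 (adjusted p = 1.52e-14). The related spectraplakin gene DST had log2 fold changes of -0.43 ± 0.06 (adjusted p = 2.53e-06) in A2780 at 20 mg/L and -0.30 ± 0.06 (adjusted p = 2.68e-05) in SKOV3 at 40 mg/L. EIF4G3, a scaffold of translation initiation, fell in A2780 at 20 mg/L with a log2 fold change of -0.53 ± 0.06 (adjusted p = 5.21e-08), and at 40 mg/L the value was 0.01 ± 0.06 (adjusted p = 0.935). CTNNA1, the alpha-catenin of adherens junctions, had -0.19 ± 0.07 (adjusted p = 0.0205) in A2780 at 20 mg/L and -0.40 ± 0.05 (adjusted p = 1.45e-08) in SKOV3 at 40 mg/L, and LRRTM2 on the opposite strand overlaps 5.89% of its exonic bases. JMJD1C, of the JmjC histone demethylase family, had -0.20 ± 0.07 (adjusted p = 0.0187) in A2780 at 20 mg/L and rose in SKOV3 at 40 mg/L by 0.32 ± 0.05 (adjusted p = 8.31e-06).

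Genes of cell adhesion and junction scaffolds numbered 35 among the long genes, of which 20 were tested in A2780 and all 35 in SKOV3. The reference for this and the lists below is the share of all long genes tested. In A2780 65.62% fell at 20 mg/L and 44.72% at 40 mg/L, and in SKOV3 10.04% and 67.8%. The shares that rose were 2.247%, 5.843%, 5.492% and 8.902% in the same order. Over all genes tested 18.9%, 19.2%, 4.95% and 25.6% fell. In A2780 at 20 mg/L, 16 of the 20 (80%) fell and none rose, with a median log2 fold change of -0.80, and at 40 mg/L 14 (70%) fell and LPP, an adaptor of focal adhesions, rose. In SKOV3 at 40 mg/L, 31 of the 35 (88.57%) fell, with a median of -1.06, and CADM1 and PCDH9 rose, both of them adhesion receptors. SKOV3 at 20 mg/L had 10 that fell (28.57%) and 4 that rose (11.43%). ANK2, an ankyrin (chr4:112818109-113383740, plus strand), had 608, 687 and 713 CPM in DMSO libraries, 381, 328 and 348 at 20 mg/L and 398, 402 and 384 at 40 mg/L in A2780, a log2 fold change of -0.93 ± 0.07 (adjusted p = 1.97e-11) at 20 mg/L. In SKOV3 it had 5.63, 4.12 and 4.08 CPM at 40 mg/L, against 23.2, 22.9 and 19.5 CPM with DMSO, a log2 fold change of -2.24 ± 0.10 (adjusted p = 4.63e-19). The treated libraries lay below the DMSO libraries in both lines. NLGN1, a postsynaptic adhesion protein, fell with a log2 fold change of -1.29 ± 0.09 (adjusted p = 1.27e-12) in A2780 at 20 mg/L and of -2.65 ± 0.19 (adjusted p = 1.16e-13) in SKOV3 at 40 mg/L. Of the genes found mainly in SKOV3, LSAMP, an immunoglobulin-family adhesion protein, averaged 8.88 ± 0.636 CPM with DMSO, 5.76 ± 0.549 at 20 mg/L and 1.52 ± 0.112 at 40 mg/L and fell at 40 mg/L with a log2 fold change of -2.55 ± 0.14 (adjusted p = 2.74e-17). TENM1, a teneurin, averaged 64.5 ± 1.05 CPM with DMSO, 40.8 ± 4.03 at 20 mg/L and 18.7 ± 3.84 at 40 mg/L, with a log2 fold change of -1.78 ± 0.11 (adjusted p = 1.23e-09) at 40 mg/L. A2780 libraries held means of at most 0.119 CPM of either.

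Of the 10 axon guidance genes, 7 were tested in A2780, where 6 (85.71%) fell at 20 mg/L and 5 (71.43%) at 40 mg/L with none rising, and in SKOV3 at 40 mg/L 9 (90%) fell and SRGAP3, a GTPase-activating partner of ROBO receptors, rose. The ligand SLIT2 and its receptor ROBO1 were among those that fell in both lines, with log2 fold changes of -0.63 and -0.74 in A2780 at 20 mg/L and of -0.26 and -0.74 in SKOV3 at 40 mg/L. NAV2 fell further in SKOV3 at 40 mg/L, averaging 7.57 ± 0.906 CPM against 20.7 ± 1.38 CPM with DMSO.

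Among 13 glypican, heparan sulfate and matrix genes, 6 of the 10 tested in A2780 (60%) fell at 20 mg/L and 4 (40%) at 40 mg/L, 11 of the 13 tested in SKOV3 (84.62%) fell at 40 mg/L, and none rose in these comparisons. The A2780 shares lay below the 65.62% and 44.72% of all long genes tested. GPC5, a second glypican, averaged 15.3 ± 1.47 CPM with DMSO, 7.86 ± 0.624 at 20 mg/L and 6.13 ± 0.598 at 40 mg/L in A2780 and fell with log2 fold changes of -0.96 ± 0.11 (adjusted p = 5.15e-08) and -1.32 ± 0.11 (adjusted p = 2.15e-10). HMCN1, which encodes hemicentin, a very large matrix protein, fell in all 4 comparisons with DMSO. It averaged 32.05 ± 3.71 CPM with DMSO, 26.5 ± 1.18 at 20 mg/L and 20.8 ± 3.51 at 40 mg/L in A2780 and 25.2 ± 0.885 CPM with DMSO, 14.3 ± 1.93 at 20 mg/L and 6.95 ± 1.47 at 40 mg/L in SKOV3, where its log2 fold change at 40 mg/L was -1.85 ± 0.11 (adjusted p = 7.67e-16). The basement membrane laminin LAMA2 was found in SKOV3, with 2.71 ± 0.137 CPM at 40 mg/L against 7.06 ± 0.905 CPM with DMSO. The collagen gene COL23A1, outside that list, averaged 32.6 ± 4.29 CPM with DMSO, 22.3 ± 1.78 at 20 mg/L and 15.1 ± 0.914 at 40 mg/L in A2780 and was lower at 40 mg/L than at 20 mg/L, with a log2 difference of -0.56 ± 0.09 (adjusted p = 0.000146).

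Signalling genes went in the direction of the long genes as a whole. Of 30 small GTPase regulators, 22 of the 27 tested in A2780 (81.48%) fell at 20 mg/L and 14 (51.85%) at 40 mg/L with none rising, and in SKOV3 at 40 mg/L 20 of 30 (66.67%) fell and TRIO, a guanine nucleotide exchange factor, rose. Of 28 cyclic nucleotide, lipid and calcium signalling genes, 16 of the 22 tested in A2780 (72.73%) fell at 20 mg/L and none rose, and in SKOV3 at 40 mg/L 20 of 28 (71.43%) fell and CAMK2D, ITPR1 and RYR3 rose. PRKG1, a cyclic GMP-dependent kinase, averaged 8.82 ± 0.763 CPM with DMSO, 3.33 ± 0.284 at 20 mg/L and 3.21 ± 0.526 at 40 mg/L in A2780 and fell with log2 fold changes of -1.40 ± 0.14 (adjusted p = 5.8e-09) and -1.45 ± 0.14 (adjusted p = 3.23e-09). CAMK1D, a calmodulin-dependent kinase, had 5.45, 3.65 and 6.35 CPM in A2780 at 20 mg/L, against 15.7, 14.7 and 12.6 CPM with DMSO, and 11.9, 9.62 and 9.75 CPM in SKOV3 at 40 mg/L, against 32.8, 29.2 and 31.3 CPM with DMSO. Its groups overlapped in neither pair, which the naming rule required in A2780, with log2 fold changes of -1.48 and -1.57. ITPR1, a calcium release channel of the endoplasmic reticulum, went opposite ways in the lines. It averaged 11.5 ± 0.8605 CPM in A2780 at 20 mg/L against 23.6 ± 2.04 CPM with DMSO, and 18.7 ± 0.499 CPM in SKOV3 at 40 mg/L against 12.4 ± 0.687 CPM with DMSO.

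Of 24 kinase and growth factor receptor genes, 13 of the 21 tested in A2780 (61.9%) fell at 20 mg/L and 8 (38.1%) at 40 mg/L, with 1 and 3 that rose. These shares lay below the 65.62% and 44.72% of all long genes tested. In SKOV3 at 40 mg/L 19 of 24 (79.17%) fell and 1 rose, PRKAG2, a regulatory subunit of AMP-activated kinase. The gene of that list that rose in A2780 at 20 mg/L was FRMD4A, which encodes a scaffold of cell polarity and not a kinase. RP11-295P9.3 on the opposite strand overlaps 19.40% of its exonic bases. DCLK1, a doublecortin-like kinase that binds microtubules, averaged 28.96 ± 1.06 CPM with DMSO, 13.3 ± 1.47 at 20 mg/L and 10.4 ± 1.26 at 40 mg/L in A2780 and fell with log2 fold changes of -1.12 ± 0.10 (adjusted p = 1.93e-10) and -1.47 ± 0.10 (adjusted p = 1.36e-12). KSR2, a scaffold of the RAF and MEK kinases, rose in A2780 at 40 mg/L by 0.39 ± 0.11 (adjusted p = 0.00677) and fell in SKOV3 at 40 mg/L, where it averaged 0.639 ± 0.228 CPM against 2.66 ± 0.146 CPM with DMSO.

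Transcription and chromatin regulators numbered 45. Of 33 tested in A2780, 23 (69.7%) fell and BACH1 rose at 20 mg/L, and 16 (48.48%) fell while BACH1 and FOXN3 rose at 40 mg/L. In SKOV3, 3 of 44 (6.818%) fell and none rose at 20 mg/L, and at 40 mg/L 31 (70.45%) fell and 7 (15.91%) rose, namely BACH1, CELF4, CREB5, FOXN3, RORA, RUNX1 and ZFPM2. A gene on the opposite strand overlaps 7.54% of the exonic bases of FOXN3 and 6.52% of those of CELF4. SMYD3, a lysine methyltransferase (chr1:245749342-246507312, minus strand), had 11.2, 9.41 and 9.79 CPM in DMSO libraries, 4.57, 3.71 and 3.400 at 20 mg/L and 4.67, 4.03 and 3.83 at 40 mg/L in A2780. Its log2 fold changes were -1.37 ± 0.14 (adjusted p = 3.39e-09) and -1.28 ± 0.14 (adjusted p = 1.2e-08) there and -0.92 ± 0.09 (adjusted p = 2.34e-10) in SKOV3 at 40 mg/L, with the treated libraries below the DMSO libraries each time. MAML3, a coactivator of NOTCH, fell with a log2 fold change of -1.31 ± 0.07 (adjusted p = 5.86e-15) in A2780 at 20 mg/L. BACH1, a repressor of heme oxygenase and other antioxidant genes (chr21:29194071-29630751, plus strand), had 25.2, 28.8 and 24.97 CPM in A2780 at 20 mg/L, against 16.7, 16.9 and 18.9 CPM with DMSO, a log2 fold change of 0.59 ± 0.09 (adjusted p = 2.55e-06). In SKOV3 it had 31.1, 30.6 and 31.7 CPM at 40 mg/L, against 17.99, 18.2 and 18.4 CPM with DMSO, a log2 fold change of 0.77 ± 0.07 (adjusted p = 7.17e-12). Its groups overlapped in neither line, which the naming rule required. CREB5, a leucine zipper factor that binds cyclic AMP response elements (chr7:28299321-28825894, plus strand), was lower in one line and higher in the other. It had 3.23, 3.01 and 3.099 CPM in A2780 at 20 mg/L, against 6.52, 8.64 and 8.22 CPM with DMSO, and 21.1, 21.9 and 17.9 CPM in SKOV3 at 40 mg/L, against 6.41, 6.32 and 5.48 CPM with DMSO. Both differences were called, with log2 fold changes of -1.32 ± 0.15 (adjusted p = 2.54e-08) and 1.74 ± 0.11 (adjusted p = 1.93e-15).

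Cytoskeleton, trafficking and motor genes numbered 39. Of 36 tested in A2780, 28 (77.78%) fell and PALLD and SYNE2 rose at 20 mg/L, 17 (47.22%) fell and 3 rose at 40 mg/L, and in SKOV3 at 40 mg/L 28 of 39 (71.79%) fell and 6 (15.38%) rose, namely DNAH14, FMNL2, LIMCH1, MAP2, MYO1D and PALLD. PALLD, an actin-bundling protein of stress fibres (chr4:168497066-168928457, plus strand), had 15.9, 15.4 and 14.2 CPM in DMSO libraries, 29.2, 33.4 and 27.8 at 20 mg/L and 37.99, 37.1 and 37.9 at 40 mg/L in A2780. The treated libraries were all higher, with log2 fold changes of 0.99 ± 0.08 (adjusted p = 1.06e-10) and 1.31 ± 0.08 (adjusted p = 3.12e-13), and in SKOV3 at 40 mg/L it rose by 0.37 ± 0.05 (adjusted p = 4.61e-07). MAP2, a microtubule-associated protein, was near 0 in A2780 and averaged 15.6 ± 0.3799 CPM with DMSO, 24.9 ± 0.403 at 20 mg/L and 39.04 ± 2.203 at 40 mg/L in SKOV3, with log2 fold changes of 0.67 ± 0.07 (adjusted p = 4.28e-09) and 1.32 ± 0.07 (adjusted p = 6.74e-18). SORBS2, an adaptor of actin filaments, averaged 3.401 ± 0.402 CPM in SKOV3 at 40 mg/L against 14.2 ± 0.702 CPM with DMSO, a log2 fold change of -2.06 ± 0.11 (adjusted p = 1.5e-17).

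The list of 12 ubiquitin and protein turnover genes, as written, also holds TMEM132B, which encodes a transmembrane protein. In A2780, 7 of 9 tested (77.78%) fell and none rose at 20 mg/L, and 3 (33.33%) fell and FBXL7, an F-box protein, rose at 40 mg/L. In SKOV3 at 40 mg/L, 6 of 12 (50%) fell, against 67.8% of all long genes tested, and KLHL29, NEDD4L and TMEM132B rose. RP11-845C23.3 on the opposite strand overlaps 5.41% of the exonic bases of NEDD4L. FBXL7 averaged 6.33 ± 1.31 CPM with DMSO, 4.59 ± 1.18 at 20 mg/L and 11.5 ± 0.628 at 40 mg/L in A2780, with log2 fold changes of -0.47 ± 0.16 (adjusted p = 0.021) at 20 mg/L and 0.86 ± 0.15 (adjusted p = 3.67e-05) at 40 mg/L. Its 20 mg/L and DMSO libraries overlapped.

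Of 16 genes at common fragile sites, 12 of the 15 tested in A2780 (80%) fell at 20 mg/L with a median log2 fold change of -1.07, and 12 (80%) fell at 40 mg/L. In SKOV3 1 of 15 (6.667%), LSAMP, fell at 20 mg/L, and at 40 mg/L 12 (80%) fell and RORA, a nuclear receptor, rose, with a median of -0.96. WWOX, an oxidoreductase gene (chr16:78099413-79212667, plus strand), averaged 25.01 ± 2.71 CPM with DMSO, 17.6 ± 1.03 at 20 mg/L and 15.3 ± 0.3605 at 40 mg/L in A2780, with log2 fold changes of -0.51 ± 0.09 (adjusted p = 4.18e-05) and -0.71 ± 0.09 (adjusted p = 3.07e-07). In SKOV3 it averaged 9.24 ± 0.565 CPM with DMSO, 9.04 ± 0.754 at 20 mg/L and 8.98 ± 0.4902 at 40 mg/L, and its log2 fold change of -0.04 ± 0.10 (adjusted p = 0.743) at 40 mg/L was not called. Members in none of these lists numbered 289. Of the 254 tested in A2780, 150 (59.06%) fell and 6 rose at 20 mg/L with a median of -0.46, and of 286 in SKOV3, 177 (61.89%) fell and 23 rose at 40 mg/L with a median of -0.44.

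Among those other members, NREP, a neuronal regeneration-related protein (chr5:111662621-111997464, minus strand), had 112, 119 and 116 CPM in DMSO libraries, 83.9, 82.5 and 77.1 at 20 mg/L and 30.1, 23.8 and 21.1 at 40 mg/L in SKOV3. The fall was called at both doses, -0.51 ± 0.08 (adjusted p = 5.43e-05) and -2.20 ± 0.08 (adjusted p = 2.83e-16). The groups did not overlap, which the naming rule required at 40 mg/L. STARD4-AS1 on the opposite strand overlaps 9.51% of the exonic bases of NREP. RIMS2, of the presynaptic active zone, fell with a log2 fold change of -1.24 ± 0.09 (adjusted p = 6.1e-12) in A2780 at 20 mg/L and of -2.30 ± 0.17 (adjusted p = 9.61e-14) in SKOV3 at 40 mg/L. NCALD, a neuronal calcium sensor, fell in SKOV3 at 40 mg/L with a log2 fold change of -2.30 ± 0.13 (adjusted p = 7.16e-17). Of the noncoding genes, CASC15 averaged 1.02 ± 0.0865 CPM in SKOV3 at 40 mg/L against 5.98 ± 0.819 CPM with DMSO, a log2 fold change of -2.56 ± 0.16 (adjusted p = 2.86e-15). LINC01572 fell with a log2 fold change of -1.55 ± 0.18 (adjusted p = 8.81e-08) in A2780 at 40 mg/L, and AC004158.3 on the opposite strand overlaps 31.78% of its exonic bases. SATB1-AS1 averaged 17.7 ± 2.21 CPM with DMSO, 16.1 ± 0.998 at 20 mg/L and 10.4 ± 0.576 at 40 mg/L in A2780 and fell at 40 mg/L with a log2 fold change of -0.76 ± 0.10 (adjusted p = 5.94e-07).

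Fewer of the other members rose. SLC27A6, of the fatty acid transport family, averaged 3.37 ± 0.738 CPM with DMSO, 8.15 ± 1.04 at 20 mg/L and 8.66 ± 0.448 at 40 mg/L in A2780, with log2 fold changes of 1.28 ± 0.15 (adjusted p = 4.13e-08) and 1.37 ± 0.15 (adjusted p = 1.13e-08). PCLO, a giant scaffold of the presynaptic active zone, averaged 20.2 ± 3.42 CPM with DMSO, 35.2 ± 1.67 at 20 mg/L and 37.4 ± 0.819 at 40 mg/L in A2780, with 0.80 ± 0.09 (adjusted p = 3.43e-08) and 0.89 ± 0.09 (adjusted p = 4.95e-09). GULP1, an adaptor for the engulfment of dying cells, fell in A2780 at 20 mg/L with a log2 fold change of -0.74 ± 0.10 (adjusted p = 1.54e-06) and rose in SKOV3 at 40 mg/L by 1.13 ± 0.07 (adjusted p = 1.28e-15). DAB1, the adaptor of reelin signalling, averaged 2.97 ± 0.221 CPM with DMSO, 4.06 ± 0.627 at 20 mg/L and 5.82 ± 0.139 at 40 mg/L in A2780 and 4.905 ± 0.253 CPM with DMSO, 5.49 ± 0.372 at 20 mg/L and 6.38 ± 1.21 at 40 mg/L in SKOV3, where its 40 mg/L and DMSO libraries overlapped although the difference was called, with a log2 fold change of 0.39 ± 0.13 (adjusted p = 0.0106). The aminopeptidase gene C9orf3 rose in A2780 at 40 mg/L by 0.51 ± 0.09 (adjusted p = 4.61e-05) and fell in SKOV3 at 40 mg/L with a log2 fold change of -0.61 ± 0.06 (adjusted p = 6.11e-10).

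**Figure D5:**
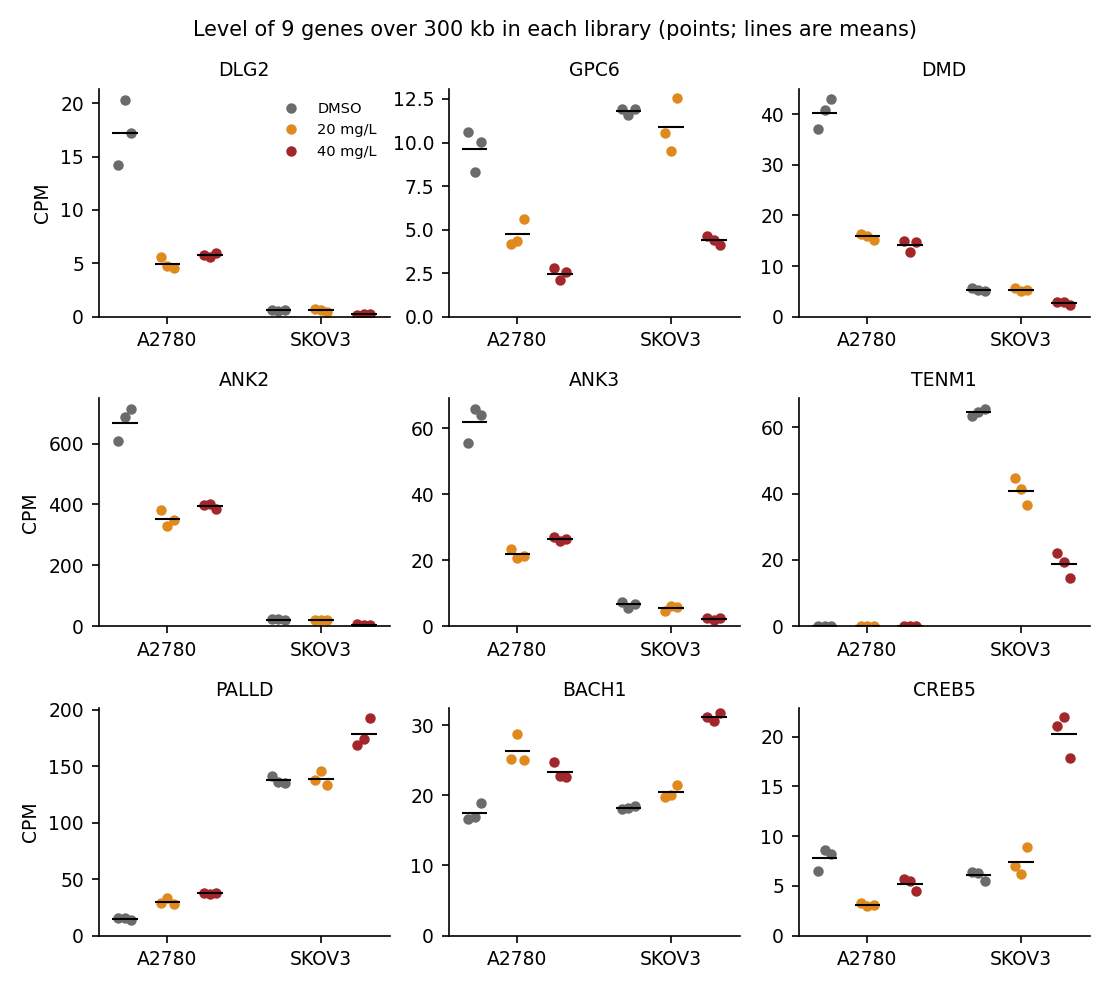
Level in every library, in CPM on a linear axis, of the named long genes by line and daphnetin dose, with the mean of 3 libraries as a line. DLG2, DMD, ANK2, ANK3 and GPC6 lie lower in all treated A2780 libraries, TENM1 lies near 0 in A2780 and falls at both doses in SKOV3, PALLD and BACH1 lie higher in treated A2780 libraries and in SKOV3 at 40 mg/L, and CREB5 is lower in treated A2780 libraries and higher in SKOV3 at 40 mg/L.

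The difference between the lines was tested as an interaction, the SKOV3 response minus the A2780 response, in a fit of all 18 libraries that kept all 532 genes. At 20 mg/L the difference was positive in 237 and negative in 14, against 11.0% and 10.6% of all 23742 genes tested, with a median of 0.49 against -0.01 over all genes. The count of 14 was 8 without A2780 DMSO replicate 1 and 9 without SKOV3 20 mg/L replicate 3. At 40 mg/L it was positive in 50 and negative in 149, against 14.3% and 15.7% of all genes tested, with a median of -0.19. Some of the 532 entered this fit through 1 line only. Of the 371 at 1 CPM or more in both lines, 214 (57.68%) were positive and 13 (3.504%) negative at 20 mg/L. The shares over 14740 single-locus genes at that level were 16.38% and 15.31%. At 40 mg/L 43 (11.59%) of the 371 were positive and 125 (33.69%) negative, against 20.31% and 21.94% of the 14740. DLG2 and GPC6 had differences of 1.82 ± 0.31 (adjusted p = 1.65e-05) and 0.91 ± 0.17 (adjusted p = 0.000117) at 20 mg/L, with DLG2 near the detection limit in SKOV3. At 40 mg/L CREB5 had 2.30 ± 0.18 (adjusted p = 3.35e-13), with a rise in SKOV3 and a fall in A2780, and KSR2 had -2.44 ± 0.25 (adjusted p = 2.5e-10), with the opposite directions.

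Genes of transcription elongation and topoisomerases, 49 in all and all of them tested in both lines, are the machinery that works on every gene body. In A2780 at 20 mg/L 17 fell (34.69%, against 18.9% of all genes tested) and 12 rose (24.49%, against 18.1%). In SKOV3 at 40 mg/L 14 fell (28.57%, against 25.6%) and 10 rose (20.41%, against 26.4%), near the shares over all genes. The medians were -0.07 and -0.04. In A2780 at 40 mg/L 12 fell (24.49%, against 19.2%) and 9 rose (18.37%, against 17.7%). In SKOV3 at 20 mg/L 8 fell (16.33%, against 4.95%) and none rose, against 5.16%. The 4 genes that follow were chosen after their values were seen. TOP1, the topoisomerase that relieves the twist ahead of the polymerase, averaged 591 ± 13.5 CPM with DMSO, 358 ± 22.1 at 20 mg/L and 427 ± 16.8 at 40 mg/L in A2780 and 1024 ± 8.23 CPM with DMSO, 831 ± 10.6 at 20 mg/L and 683 ± 14.4 at 40 mg/L in SKOV3. It fell in all 4 comparisons with DMSO, with log2 fold changes of -0.72 ± 0.07 (adjusted p = 5.4e-10) in A2780 at 20 mg/L and -0.58 ± 0.05 (adjusted p = 4.37e-12) in SKOV3 at 40 mg/L. SFPQ, an RNA-binding protein that in mouse neurons is needed for the transcription of long genes, had -0.43 ± 0.07 (adjusted p = 2.52e-05) and -0.66 ± 0.05 (adjusted p = 3.09e-13) in the same comparisons. It had -0.41 ± 0.07 (adjusted p = 3.59e-05) in A2780 at 40 mg/L and -0.38 ± 0.05 (adjusted p = 6.81e-07) in SKOV3 at 20 mg/L. In A2780 at 20 mg/L and SKOV3 at 40 mg/L, TOP2B had -0.37 ± 0.06 (adjusted p = 2.82e-05) and -0.51 ± 0.05 (adjusted p = 1.46e-10), and POLR2A, the largest subunit of the polymerase, rose by 0.43 ± 0.06 (adjusted p = 2.47e-06) and 0.34 ± 0.06 (adjusted p = 8.42e-06). In A2780 at 40 mg/L TOP2B fell and POLR2A was not called, and in SKOV3 at 20 mg/L neither was called. Their part in the levels of the long genes was not tested. Markers of immune, endothelial, stromal and neural cells, 15 in all, summed to 132 to 175.1 CPM in A2780 libraries and 602.8 to 870.5 CPM in SKOV3 libraries, and their part was not tested either. Of the 10 tested in SKOV3 at 40 mg/L, COL1A1, COL1A2, DCN, LUM, PECAM1 and SYT1 fell, and CD68 and RBFOX3 rose. SYT1 and RBFOX3 themselves span more than 300 kb. From 3 to 6 of the 15 were at 0 in an A2780 library and from 1 to 4 in a SKOV3 library, and the leukocyte marker PTPRC averaged at most 0.169 CPM in any group.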

How the data were processed

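Bulk RNA of 18 libraries was sequenced. The kit keeps strand, per the labels' protocols. The submitters' processing notes name Trimmomatic 0.36 and GRCh38. No aligner, counting program, annotation release or strand setting is given in the sources used here. The authors deposited raw counts of reads per gene as whole numbers, with exon starts, ends, strand and exonic length, per the file headers. Even numbers made up 74.27% to 76.95% of a library's counts of 1 to 12, so both mates of a pair appear to have been counted and depth is overstated. Counting error only is covered by depth.

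The members and gene lists were chosen with earlier results of these data known. Each line was fitted alone with edgeR 4.0.16 in R 4.3.3 (filterByExpr, TMM, robust quasi-likelihood F test, Benjamini-Hochberg adjustment over all genes tested, two-sided, threshold 0.05), and the interaction over all 18 libraries. The biological coefficient of variation was 7.71% in A2780, 5.83% in SKOV3 and 6.81% over all. The scripts were tested on simulated data. Alternatives were DESeq2 1.42.0, other scalings and filters, the replicate block, mitochondrial genes left out and each library left out. In SKOV3 the deviations of same-numbered DMSO and 20 mg/L libraries had correlations of 0.184, 0.233 and 0.184. Those of unlike numbers there ran from -0.207 to 0.034. In A2780 libraries of unlike numbers reached 0.264, so values of this size also arose without a shared number. No label says what a number marks, and whether libraries are paired was not tested. Biotypes matched 507 of 532 symbols.

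Named genes were the given markers DLG2 and GPC6, the 5 members of largest span and the 5 of highest mean. Within a line, called members were eligible if their higher group averaged 5 CPM or more and their libraries did not overlap. Of these, the 8 highest and 8 lowest fold changes at 40 mg/L were named, 4 and 4 at 20 mg/L, and 3 and 3 between doses. In each interaction 4 and 4 called members averaging 5 CPM or more in at least 1 group were named, with no condition on overlap. Members of the role lists are named as examples. Genes in 28 pooled rows are not described.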

Additional observations from a re-analysis of the deposited data

Results flagged for a closer look

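All results here stand out because the responses of the lines differed, by the interaction test of the SKOV3 response minus the A2780 response (log2, edgeR, adjusted over all genes tested). At 20 mg/L the difference was positive in 237 of the 532 long genes and negative in 14, and at 40 mg/L it was positive in 50 and negative in 149. Among the 371 at 1 CPM or more in both lines, 214 were positive and 13 negative at 20 mg/L. At 40 mg/L 43 of them were positive and 125 negative. Over 14740 single-locus genes at that level the shares were 16.38% and 15.31% at 20 mg/L, and 20.31% and 21.94% at 40 mg/L.

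At 20 mg/L the difference was 1.82 for DLG2 and 0.91 for GPC6, which fell in A2780. DLG2 lay near the detection limit in SKOV3, where the sign of its 20 mg/L log2 fold change turned when single libraries were left out. It was -0.99 for PALLD, -0.82 for PCLO, -0.87 for CCDC102B and -0.79 for PCDH7. The first 3 of these rose in A2780, and PCDH7 was not called in that line. At 40 mg/L it was 0.51 for GPC6, 2.30 for CREB5, 1.59 for KIAA1217 and -2.44 for KSR2. CREB5 and KIAA1217 fell in A2780 and rose in SKOV3, and KSR2 did the opposite.

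Other differences rest on A2780 levels near 0 and depend on the prior count of the fit, so their size is no bound. At 20 mg/L these were TMEM132B with 5.01, PDE1C with 4.34, ADAMTSL3 with 3.93 and SHANK2 with 3.65. At 40 mg/L they were TMEM132B with 5.69, SORCS2 with 4.20, SORBS2 with -5.72, MIR100HG with -4.49 and LAMA2 with -3.17.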

How the results depend on the processing

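The counts of long genes called higher and lower stayed within 1.5 times of those reported under size factors of another kind, no filter, DESeq2, the replicate block, mitochondrial genes left out and all 560 rows kept. Library totals alone gave 52 called higher in A2780 at 40 mg/L in place of 26, and moved the median of all genes to 0.103 at 20 mg/L and 0.089 at 40 mg/L.

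With the replicate block no count moved by over 1.5 times. No call against DMSO changed for the markers, the genes of largest span or level, or the genes named for that comparison. This held also in SKOV3 at 20 mg/L, where same-numbered libraries had positive correlations. Calls of single genes between doses and in the interactions were not rechecked. In the other comparisons same-numbered libraries had correlations of deviations from -0.227 to 0.200. With the block, 288 fell and 10 rose in A2780 at 20 mg/L, 197 and 25 at 40 mg/L, 58 and 34 in SKOV3 at 20 mg/L and 359 and 48 at 40 mg/L.

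Leaving out each library in turn gave 8 to 11 higher and 269 to 286 lower in A2780 at 20 mg/L, 20 to 26 and 175 to 189 at 40 mg/L, and 144 to 172 and 7 to 17 between doses. In SKOV3 it gave 16 to 29 and 30 to 47 at 20 mg/L, 39 to 53 and 340 to 348 at 40 mg/L, and 26 to 34 and 337 to 350 between doses. The interaction counts ran from 219 to 232 positive and 8 to 15 negative at 20 mg/L, and from 34 to 49 and 129 to 160 at 40 mg/L.

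Signs turned in differences that were not called. In A2780 at 40 mg/L the log2 fold change of EIF4G3 ran from -0.016 without 40 mg/L replicate 2 to 0.041 without DMSO replicate 3. In SKOV3 at 20 mg/L that of DLG2 ran from -0.098 without 20 mg/L replicate 1 to 0.183 without 20 mg/L replicate 3, and was -0.053 without DMSO replicate 2 and -0.024 without 20 mg/L replicate 2. That of DMD ran from -0.03 without DMSO replicate 3 to 0.054 without DMSO replicate 1, and was -0.017 without 20 mg/L replicate 1. The cause was not tested.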
